A study of Mus musculus with 18 samples.

Results

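The 9 genes described here act in blood coagulation, in its restraint or in the breakdown of fibrin. They are F10, F7, F13a1, F3, Plau, Plaur, Serpinb2, Thbs1 and Thbd. They were chosen by name from the gene symbols of the deposited tables, which list 24485 genes, with earlier results of these data known. All 9 were found in each of the 18 libraries. The RNA came from bone marrow-derived macrophages (BMDMs), grown from marrow with L929-conditioned medium, from 12-week-old male Il10-/- mice on the C57BL/6J background. Every group carried the Il10 deletion, and none served as a wild-type control. The 6 groups of 3 libraries were Unstimulated cells, cells given 500 nM (+)-JQ1 (JQ1), cells given 10 ng/mL IL-10 (IL-10), and the same 3 conditions followed by 50 ng/mL LPS (LPS, LPS + JQ1 and LPS + IL-10). The pretreatment lasted 12 hours and the LPS or its buffer a further 4 hours, 16 hours in all. By the labels the controls of the pretreatment were left untreated, while the study's methods speak of a vehicle. The marrow came from 3 mice, and libraries with the same replicate number were taken to share a mouse.

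Coagulation outside vessels starts when tissue factor (F3), a membrane protein, binds factor VII (F7), and the complex activates factor X (F10), the protease that turns prothrombin into thrombin. Thrombin makes fibrin, factor XIII (its A subunit is F13a1) cross-links the fibrin, and thrombomodulin (Thbd) binds thrombin and redirects it towards an anticoagulant role. Urokinase (Plau), held at the cell surface by its receptor (Plaur), turns plasminogen into the fibrin-cutting enzyme plasmin, and Serpinb2 (plasminogen activator inhibitor 2) inhibits urokinase. Thrombospondin 1 (Thbs1) is a matrix glycoprotein that platelets also carry. Monocytes and macrophages are known to display tissue factor after contact with LPS, a component of the outer membrane of Gram-negative bacteria. (+)-JQ1 blocks the bromodomains of BET proteins, which bind acetylated histones, and IL-10 is a cytokine that restrains macrophage activation.

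Levels are given below as normalised counts, which are read counts divided by a library size factor, or as TPM. TPM divides by gene length and is scaled to the total of each library instead of that size factor. It is the only scale used to compare genes with each other. A gene was called changed when its DESeq2 adjusted p was under 0.05. Total expected counts ran from 6781952 to 28289498 per library. Reads of Il10 remained in every library, at 27.1 to 177 normalised counts. All 7 macrophage markers found in the tables were above 1 TPM in every group, and their summed level was 14100 to 29100 TPM, most of it Lyz2. Single markers moved in both directions. With JQ1 alone, mean Itgam was 86.3 TPM beside 309 in Unstimulated, and mean Lyz2 was 24700 TPM beside 18400. In LPS, mean Csf1r was 613 TPM beside 1620 in Unstimulated, and mean Cd14 was 1740 TPM beside 590. Of 5 hepatocyte markers, Alb, Ttr, Serpina1a and Tat were at 0 in every library and the summed level did not exceed 0.14 TPM. The 9 megakaryocyte or platelet markers summed to 347 to 356 TPM in Unstimulated, 161 to 180 in JQ1, 378 to 418 in IL-10, 376 to 398 in LPS, 144 to 160 in LPS + JQ1 and 344 to 368 TPM in LPS + IL-10, nearly all of it Pf4, while Itga2b, Gp9, Gp1bb, Gp5 and Gp6 stayed under 1 TPM. Treml1 had means of 3.01 TPM in Unstimulated, 3.09 in JQ1 and 3.16 in IL-10, and Gp1ba 1.88, 2.23 and 1.88 TPM. Both had means under 1 TPM in the LPS groups, and Ppbp reached 1.22 TPM in its highest library. The 8 endothelial markers summed to 0.65 to 0.95 TPM in Unstimulated, 0.21 to 0.32 in JQ1, 1.07 to 1.35 in IL-10, 7.48 to 9.68 in LPS (Kdr for the most part), 0.04 to 0.14 in LPS + JQ1 and 7.63 to 9.5 TPM in LPS + IL-10. For the 8 fibroblast or stromal markers the sums were 5.80 to 11.3 TPM in Unstimulated, 6.08 to 11.3 in JQ1, 6.35 to 9.92 in IL-10, 18.5 to 20.9 in LPS (Pdgfrb for the most part), 2.40 to 7.67 in LPS + JQ1 and 20.6 to 21.9 TPM in LPS + IL-10. The 10 neutrophil markers summed to 27.2 to 91.2 TPM in Unstimulated, 8.05 to 18 in JQ1, 29.9 to 41.9 in IL-10, 37.2 to 53.3 in LPS, 13.5 to 30.4 in LPS + JQ1 and 33.1 to 72.2 TPM in LPS + IL-10, with Ly6g at 0 throughout. The 5 T or B lymphocyte markers did not exceed a sum of 1.09 TPM. The part of these other markers in the results below was not tested. In bulk RNA, fewer cells of a type and less RNA per cell cannot be told apart.

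LPS raised tissue factor, factor X, the urokinase receptor and the urokinase inhibitor Serpinb2, and lowered urokinase and thrombomodulin. F3, Serpinb2, Plaur and F10 rose by 3.52 to 5.86 on the log2 scale, F7 rose slightly (a direction that depended on the scaling), Thbd, Plau and Thbs1 fell, and F13a1 was not called. Against Unstimulated, 5 of the 9 genes were called higher and 3 lower, beside 64.5% of all tested genes called in either direction (31.6% higher and 32.9% lower). JQ1 alone lowered 8 of the 9 genes and raised none, beside 23.7% of tested genes called lower. With LPS present, JQ1 again lowered 8 of 9, beside 32.9% called lower. IL-10 alone changed 3 of 9 genes, 1 higher and 2 lower, where 2.81% of tested genes were called. After LPS, IL-10 changed 6 of 9, 3 in each direction, where 17.2% were called. The median log2 change over the 9 genes was -3.29 for JQ1 against Unstimulated and -2.82 for LPS + JQ1 against LPS, beside medians over all tested genes of -0.00 and -0.11. Because earlier results were known when the 9 genes were chosen, these counts and medians describe the genes and do not test them as a set.

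**Figure D1:**
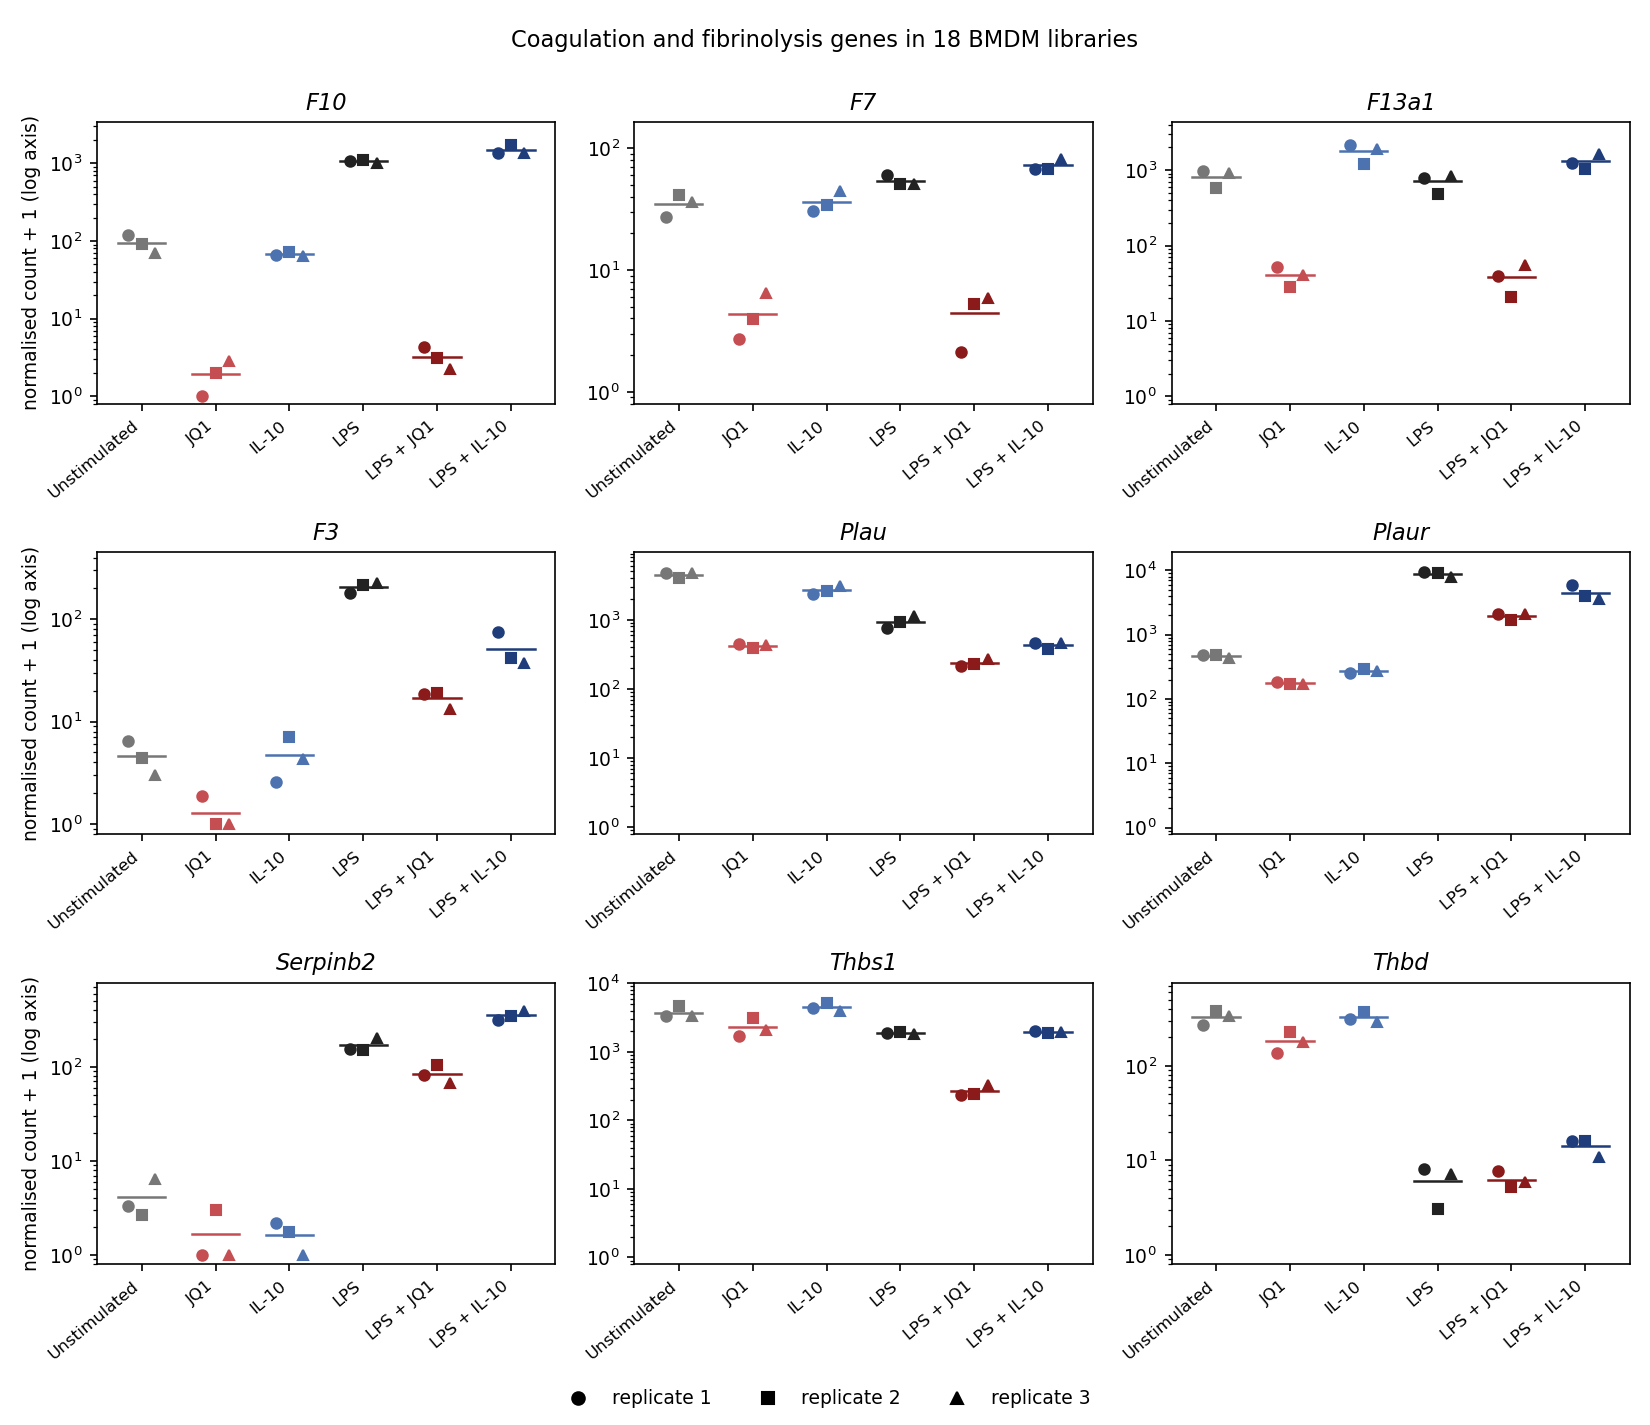
Normalised count plus 1 (log axis) of each of the 9 genes in all 18 libraries, with 1 panel per gene, the 6 groups along the x axis, a marker shape for each replicate number and a bar at the group mean. F10 sits at 1019 to 1096 normalised counts in LPS and at 1.23 to 3.31 in LPS + JQ1, and Thbd falls from 267 to 379 in Unstimulated to 2.07 to 7.07 in LPS.

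**Figure D2:**
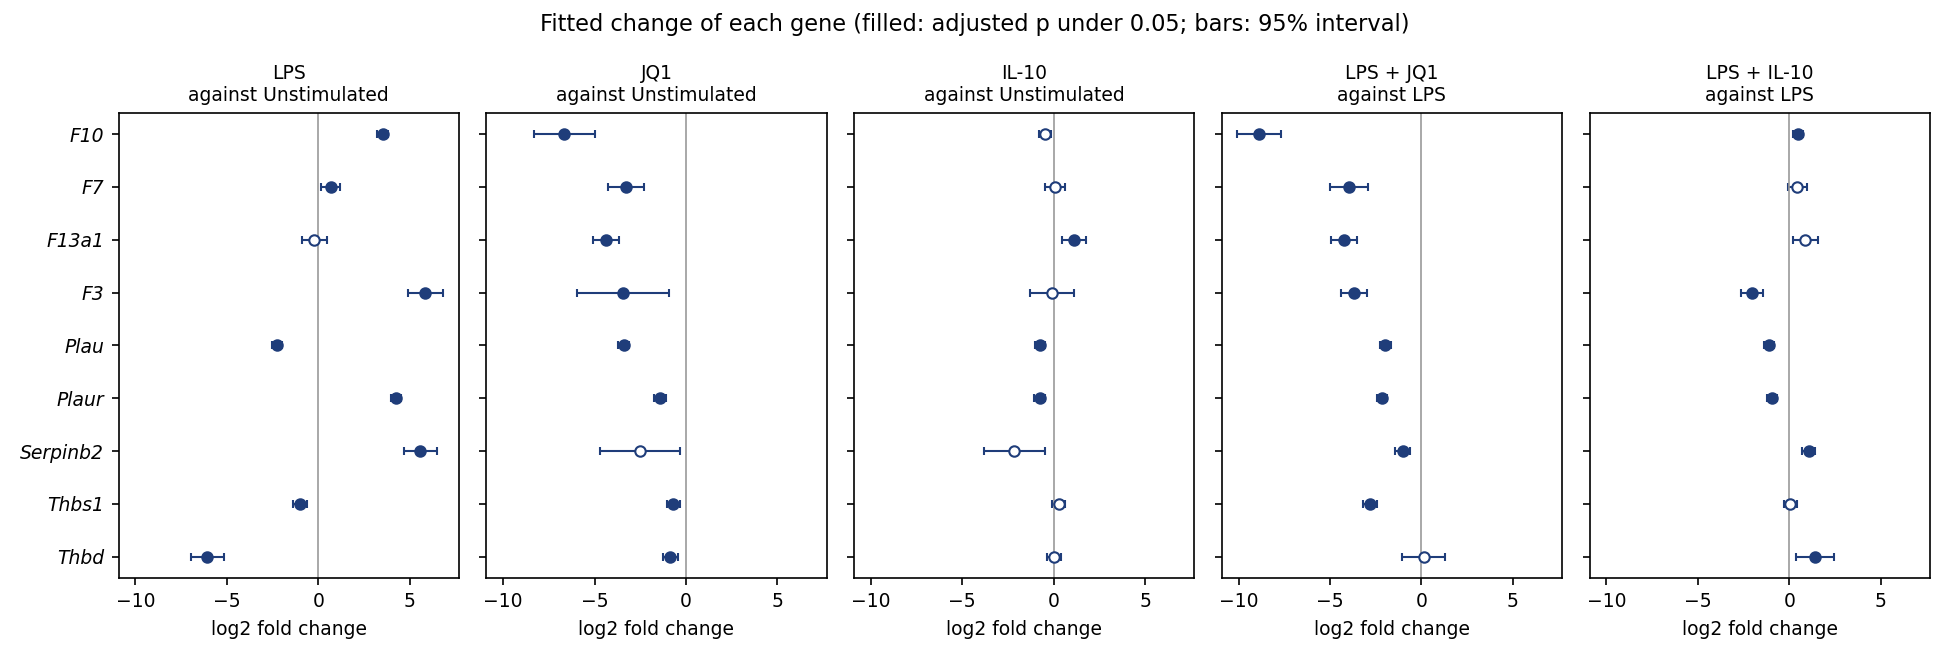
Fitted log2 fold change of each gene (x axis) with its 95% interval in 5 comparisons, filled where the adjusted p was under 0.05. In both JQ1 panels the called genes all lie to the left of 0, whereas the LPS and IL-10 panels hold called genes on both sides.

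F3 encodes tissue factor and lies on chromosome 3 at 121426455 to 121437970 (mm9, plus strand). Its normalised counts were 5.40, 3.38 and 2.01 in Unstimulated and 180, 216 and 225 in LPS. All 3 LPS libraries stood far above every library without LPS, and the log2 rise was 5.86 ± 0.50 (SE, n = 3 per group, adjusted p = 6.33e-31). LPS + JQ1 gave 17.7, 17.9 and 12.3 normalised counts, and LPS + IL-10 gave 74.4, 41.0 and 36.1. The 3 LPS groups did not overlap, with LPS highest, LPS + IL-10 between and LPS + JQ1 lowest. JQ1 left 7.72% of the LPS level (5.48% to 9.84% by mouse, log2 -3.69 ± 0.35, adjusted p = 6.00e-25) and IL-10 left 24.4% (16.1% to 41.5%, log2 -2.05 ± 0.30, adjusted p = 5.13e-10). Even with JQ1, F3 after LPS remained above Unstimulated (log2 2.17 ± 0.54, adjusted p = 1.45e-04). Without LPS the counts were few: 12 reads in 3 Unstimulated libraries and 1 read in 3 JQ1 libraries, a ratio of 11.6 with a 95% counting interval of 1.71 to 495. That fall was called (adjusted p = 0.0181) but not without Unstimulated replicate 1 (adjusted p = 0.0827), JQ1 replicate 2 (0.0977) or JQ1 replicate 3 (0.105), or with only the groups compared in the fit (0.0948). IL-10 alone gave 1.57, 6.15 and 3.32 normalised counts, which overlapped Unstimulated.

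F7, the protease that tissue factor binds, was low in all groups. It lies on chromosome 8 at 13026034 to 13035809 (mm9, plus strand), and its end is 1498 bases before the start of F10. In Unstimulated the normalised counts were 26.2, 40.6 and 34.9, in JQ1 1.73, 2.96 and 5.50, and in LPS + JQ1 1.10, 4.21 and 4.92. Every library with JQ1 was below every library without it. JQ1 lowered F7 to 10.0% of Unstimulated (log2 -3.29 ± 0.50, adjusted p = 3.54e-10) and to 6.43% of LPS (log2 -3.97 ± 0.53, adjusted p = 5.92e-13). LPS alone gave 59.4, 49.6 and 50.3 normalised counts, above all Unstimulated libraries, for a log2 rise of 0.68 ± 0.27 (adjusted p = 0.0211). The direction of that rise depended on the scaling: it was -0.25 with size factors from total counts, and the mean TPM was 2.78 ± 0.53 (SD, n = 3) in Unstimulated and 2.55 ± 0.17 in LPS. The call was also lost without Unstimulated replicate 1 (adjusted p = 0.136) or LPS replicate 1 (0.0869). IL-10 gave 29.5, 33.0 and 43.2 normalised counts without LPS, overlapping Unstimulated. With LPS, IL-10 gave 66.3, 66.9 and 81.1 normalised counts, above all 3 LPS libraries, but the difference was not called (log2 0.45, 95% interval -0.06 to 0.95, adjusted p = 0.272).

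F10 spanned the widest range of group means among the 9 genes as a ratio of the highest to the lowest. This gene for factor X lies on chromosome 8 at 13037308 to 13056676 (mm9, plus strand). Unstimulated cells held 117, 91.3 and 69.7 normalised counts, and LPS cells 1069, 1096 and 1019. The 3 LPS libraries were close to each other and 11.4 times the Unstimulated mean on average, with a log2 rise of 3.52 ± 0.16 (adjusted p = 6.96e-104). In JQ1 the 3 libraries held 0, 1 and 2 reads, and in LPS + JQ1 they held 3, 2 and 1. The transcript was thus at or under the floor of 3 reads in every JQ1 library, with or without LPS. The ratio of Unstimulated to JQ1 was 99.8 (95% counting interval 33.8 to 486, adjusted p of the fit = 6.20e-14), and that of LPS to LPS + JQ1 was 473 (217 to 1289, adjusted p = 1.97e-47). These intervals, like the other counting intervals in the text, pool the reads of the 3 libraries of each group. They cover counting error only and leave out differences between libraries. They also treat reads as independent molecules, which reads are not. IL-10 acted in the other direction after LPS: LPS + IL-10 held 1352, 1710 and 1374 normalised counts, all above the LPS libraries (log2 0.48 ± 0.14, adjusted p = 0.00574), a call lost without LPS + IL-10 replicate 2 (adjusted p = 0.0697) and in limma on log2(TPM + 0.1) (0.0978). Without LPS, IL-10 gave 64.4, 71.5 and 64.0 normalised counts, which overlapped Unstimulated (log2 -0.48, adjusted p = 0.166), although leaving out Unstimulated replicate 3 brought a call (adjusted p = 0.00970).

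F13a1, the A subunit of the fibrin cross-linking enzyme, lies on chromosome 13 at 36959047 to 37142113 (mm9, minus strand). Its normalised counts were 960, 573 and 914 in Unstimulated and 2175, 1209 and 1930 in IL-10. Replicate 2 was the lowest of the 3 in all 6 groups, and within each mouse IL-10 gave 211% to 226% of Unstimulated. The IL-10 rise was 1.12 ± 0.34 on the log2 scale (adjusted p = 0.0392, and 1.93e-17 with the replicate number as a block). Without the block it was not called once Unstimulated replicate 2 (adjusted p = 0.249), Unstimulated replicate 3 (0.0735), IL-10 replicate 1 (0.355) or IL-10 replicate 3 (0.168) was left out, or with lane as a covariate (0.0589). LPS gave 796, 485 and 842 normalised counts and LPS + IL-10 gave 1246, 1022 and 1643. In this pair too the groups did not overlap and IL-10 was higher in 3 of 3 mice, at 157% to 211% of LPS, which was not called without the block (log2 0.88 ± 0.34, adjusted p = 0.0540) but was called with it (adjusted p = 1.10e-11) and in edgeR (0.0182). JQ1 gave 51.0, 27.6 and 39.4 normalised counts, and LPS + JQ1 gave 38.7, 20.01 and 54.2. Both JQ1 groups were far below all others, at 4.82% of Unstimulated (log2 -4.37 ± 0.36, adjusted p = 6.75e-32) and 5.31% of LPS (log2 -4.24 ± 0.37, adjusted p = 1.62e-29). LPS itself left F13a1 at 82.9% to 92.1% of Unstimulated by mouse, which was not called (log2 -0.21, 95% interval -0.88 to 0.46, adjusted p = 0.622) except with total-count size factors (log2 -1.14, adjusted p = 0.00164) and on the TPM scale.

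Thbd encodes thrombomodulin, the thrombin receptor of the anticoagulant pathway, on chromosome 2 at 148230207 to 148233924 (mm9, minus strand). Normalised counts were 267, 379 and 333 in Unstimulated and 7.07, 2.07 and 6.14 in LPS. Nothing else among the 9 genes fell so far with LPS: 1.56% of the Unstimulated level remained (log2 -6.07 ± 0.46, adjusted p = 6.55e-39), from 5, 2 and 5 reads. JQ1 alone gave 135, 229 and 177 normalised counts, below all Unstimulated libraries (log2 -0.85 ± 0.21, adjusted p = 1.36e-04). IL-10 alone gave 312, 370 and 289 normalised counts, and the fitted difference from Unstimulated was -0.00 (log2, 95% interval -0.39 to 0.39). After LPS the counts were 6.63, 4.21 and 4.92 with JQ1, overlapping LPS alone, and 14.9, 15.2 and 9.92 with IL-10. The IL-10 libraries were above all 3 LPS libraries (log2 1.41 ± 0.52, adjusted p = 0.0422), from 10 or 11 reads each. That call was lost without LPS replicate 1 (adjusted p = 0.0505), 2 (0.277) or 3 (0.0681) and without LPS + IL-10 replicate 1 (0.102) or 2 (0.121), and in edgeR (0.112). It was also lost with only the groups compared in the fit (0.315) and in limma on log2(TPM + 1) (0.234).

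Thbs1, the matrix glycoprotein thrombospondin 1, lies on chromosome 2 at 117937612 to 117952869 (mm9, plus strand). Unstimulated libraries held 3323, 4609 and 3307 normalised counts, JQ1 libraries 1677, 3133 and 2103, and LPS libraries 1890, 1927 and 1811. Both treatments lay below all Unstimulated libraries, JQ1 by -0.70 ± 0.18 and LPS by -0.996 ± 0.18 on the log2 scale (adjusted p = 4.80e-04 and 1.42e-07). The JQ1 difference was not called with only the groups compared in the fit (adjusted p = 0.0561). With LPS + JQ1 the counts were 234, 240 and 323, which was 14.2% of LPS (12.4% to 17.8% by mouse, log2 -2.82 ± 0.19, adjusted p = 3.38e-48) and 7.09% of Unstimulated. IL-10 gave 4420, 5146 and 3958 normalised counts without LPS and 2015, 1906 and 1941 with it. Both ranges overlapped the matching group without IL-10, and neither difference was called (log2 0.27, 95% interval -0.09 to 0.63, and log2 0.06, 95% interval -0.30 to 0.42).

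Plau, the gene for urokinase, lies on chromosome 14 at 21655884 to 21662610 (mm9, plus strand) and was lowered by every treatment. Its normalised counts were 4744, 3966 and 4740 in Unstimulated, 445, 393 and 426 in JQ1, 2330, 2646 and 3070 in IL-10, and 751, 938 and 1131 in LPS. No treated library reached the lowest Unstimulated library. The log2 falls were -3.41 ± 0.14 with JQ1 (adjusted p = 2.45e-122), -0.74 ± 0.14 with IL-10 (adjusted p = 1.80e-05) and -2.25 ± 0.14 with LPS (adjusted p = 2.53e-56). The IL-10 fall was not called in limma on log2(TPM + 1) (adjusted p = 0.0594). Pretreatment lowered Plau further after LPS. LPS + JQ1 gave 212, 231 and 273 normalised counts, 25.4% of LPS (log2 -1.98 ± 0.15, adjusted p = 1.22e-37), and LPS + IL-10 gave 462, 374 and 463, 46.1% of LPS (log2 -1.12 ± 0.15, adjusted p = 2.47e-12). The 3 LPS groups did not overlap.

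Plaur, the urokinase receptor on chromosome 7 at 25247519 to 25260892 (mm9, plus strand), moved against its ligand under LPS. Unstimulated libraries held 482, 479 and 434 normalised counts and LPS libraries 9541, 8939 and 7814, a log2 rise of 4.24 ± 0.15 (adjusted p = 3.35e-181). LPS + JQ1 held 2073, 1698 and 2056, and LPS + IL-10 held 5881, 4037 and 3633. The order was the same as for F3, with LPS highest and LPS + JQ1 lowest and no overlap among them. JQ1 left 22.2% of the LPS level (log2 -2.17 ± 0.14, adjusted p = 1.11e-50) and IL-10 left 51.5% (log2 -0.96 ± 0.14, adjusted p = 8.15e-10). Without LPS, JQ1 gave 181, 168 and 171 normalised counts and IL-10 gave 256, 294 and 271. Both fell below Unstimulated, to 37.3% and 58.8% of its level (log2 -1.42 ± 0.16 and -0.77 ± 0.15, adjusted p = 7.10e-18 and 9.32e-05).

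Serpinb2, the inhibitor of urokinase, lies on chromosome 1 at 109408000 to 109432055 (mm9, plus strand), where it overlaps the annotated gene Serpinb10-ps on the same strand, so its reads may be divided between them. It was near 0 without LPS, at 2.31, 1.69 and 5.36 normalised counts in Unstimulated, and rose to 156, 152 and 201 in LPS (log2 5.59 ± 0.46, adjusted p = 1.74e-33). LPS + JQ1 gave 80.6, 103 and 66.5 normalised counts and LPS + IL-10 gave 318, 351 and 394. Here IL-10 stood above LPS and JQ1 below it, with no overlap. Serpinb2 reached 209% of LPS with IL-10 (196% to 231% by mouse, log2 1.07 ± 0.19, adjusted p = 4.35e-07) and 49.2% with JQ1 (log2 -1.02 ± 0.21, adjusted p = 2.64e-06, but 0.0924 in limma on log2(TPM + 0.1)). Before LPS there were 12 reads in Unstimulated, 2 in JQ1 and 4 in IL-10 over 3 libraries each. Neither difference was called (adjusted p = 0.0517 and 0.214), although the JQ1 difference was called without Unstimulated replicate 1 (adjusted p = 0.0381), Unstimulated replicate 2 (0.0402) or JQ1 replicate 2 (0.0102) and in edgeR (0.0453).

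Because F3, Serpinb2, Plaur and F10 rose most with LPS, and F10, F13a1 and F7 fell most with JQ1 after LPS, the letters before their starts were searched. Those of F3, Plaur, Serpinb2, F10 and F7 are shown, and the windows of F13a1 were searched but are not printed. RefSeq promoter sequences (GRCm38.p6) were held for 6 of the 9 genes, and Plau, Thbs1 and Thbd had no entry. Each line gives the 250 bases before the annotated start, 5′ to 3′ on the strand of the gene, with exact matches to the AP-1 letters TGANTCA or the NF-kB letters GGNNTTTCC in capitals.
F3, chr3:121723287-121723536, plus strand: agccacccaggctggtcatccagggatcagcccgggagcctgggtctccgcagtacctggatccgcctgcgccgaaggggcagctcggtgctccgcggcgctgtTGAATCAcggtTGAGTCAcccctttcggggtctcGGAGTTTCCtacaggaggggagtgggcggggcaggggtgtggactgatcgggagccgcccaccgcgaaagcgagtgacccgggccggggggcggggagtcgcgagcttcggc
Plaur, chr7:24462233-24462482, plus strand: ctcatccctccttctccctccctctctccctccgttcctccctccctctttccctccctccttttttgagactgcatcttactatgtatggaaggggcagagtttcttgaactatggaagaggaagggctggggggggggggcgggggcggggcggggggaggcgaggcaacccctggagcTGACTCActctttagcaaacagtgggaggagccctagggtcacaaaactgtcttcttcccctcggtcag
Serpinb2 (its upstream start), chr1:107511173-107511422, plus strand: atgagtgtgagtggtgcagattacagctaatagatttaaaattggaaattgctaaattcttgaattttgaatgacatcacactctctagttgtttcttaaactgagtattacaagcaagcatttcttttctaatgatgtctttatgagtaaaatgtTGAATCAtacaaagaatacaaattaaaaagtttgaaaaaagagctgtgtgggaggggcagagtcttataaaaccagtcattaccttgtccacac
F10, chr8:13037058-13037307, plus strand: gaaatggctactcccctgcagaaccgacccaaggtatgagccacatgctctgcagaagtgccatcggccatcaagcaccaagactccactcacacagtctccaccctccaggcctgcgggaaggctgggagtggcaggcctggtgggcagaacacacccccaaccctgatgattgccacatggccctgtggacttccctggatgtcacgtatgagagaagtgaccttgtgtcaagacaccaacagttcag
F7, chr8:13025784-13026033, plus strand: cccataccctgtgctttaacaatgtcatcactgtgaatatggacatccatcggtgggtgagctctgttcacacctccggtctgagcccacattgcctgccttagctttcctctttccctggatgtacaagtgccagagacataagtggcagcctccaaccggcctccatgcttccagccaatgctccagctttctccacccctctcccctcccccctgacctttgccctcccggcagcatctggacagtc

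The AP-1 letters, which read the same on both strands, stood at -146 and -135 before F3, at -69 before Plaur and at -94 before the upstream start of Serpinb2, counted as the first base of the match with -1 just before the start. They were absent from the windows of F10, F7 and F13a1, and occurred in 6.75% of the 32851 RefSeq promoter windows. The NF-kB letters, searched on both strands, stood at -112 before F3 and at -128 before 1 of the 2 starts of F13a1, and in 4.93% of all windows. GC boxes (GGGCGG or CCGCCC) occurred at 3 places before F3 and at 3 places before Plaur (32.7% of all windows), and a TATA box (TATAAA or TTTATA) at -29 before Serpinb2 (12.4%). The interferon response letters GAAANNGAA (7.13% of windows) and the PU.1 letters GAGGAAGT (2.44%), searched on both strands, matched in none of the windows of the 6 genes. A match is a run of letters only, and its use in these cells was not measured here.

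**Figure D3:**
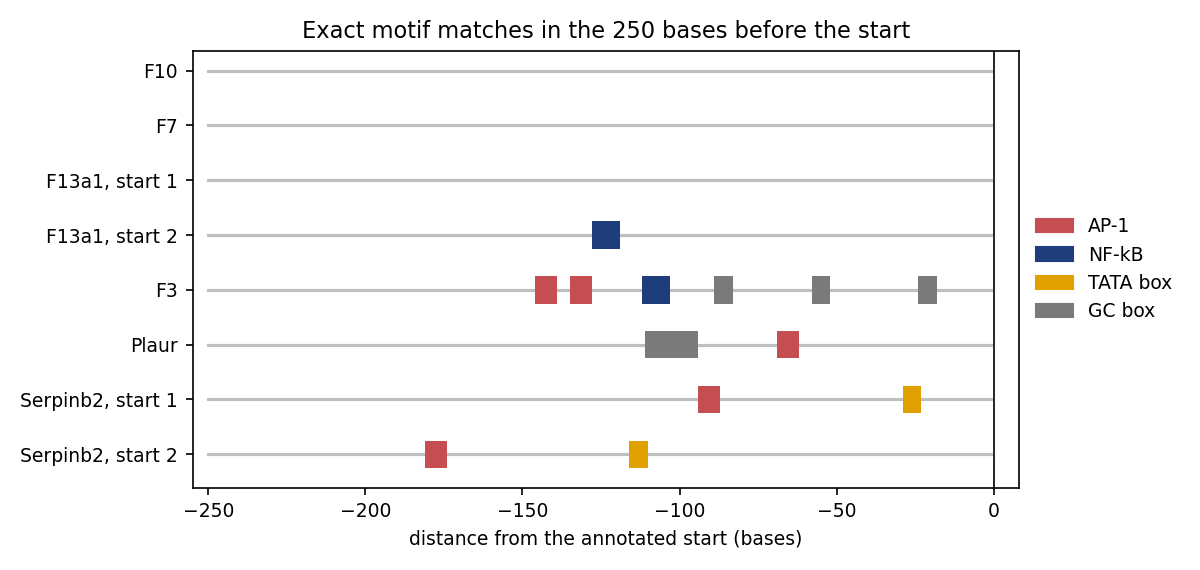
Positions of exact motif matches in the 250 bases before each of the 8 annotated starts of the 6 genes with an entry, as distance from the start in bases, with 1 colour per motif. F3, Plaur and both starts of Serpinb2 carry AP-1 matches, and the lines of F10, F7 and the first start of F13a1 are empty.

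The LPS response of each gene was then compared between pretreatments. Plau fell by 2.25 on the log2 scale with LPS alone, by 0.82 after JQ1 and by 2.63 after IL-10, and the interaction of LPS with JQ1 was 1.43 ± 0.21 (adjusted p = 9.70e-11). Thbs1 fell by 0.996 with LPS alone and by 3.12 after JQ1 (interaction -2.12 ± 0.26, adjusted p = 1.95e-14), so its LPS response was larger with JQ1 whereas that of Plau was smaller. For Plaur the LPS rise was 4.24 alone and 3.49 after JQ1 (interaction -0.75 ± 0.21, adjusted p = 0.00163). That interaction was not called with total-count size factors (-0.20, adjusted p = 0.411) or on the TPM scale (-0.30, adjusted p = 0.0861). These 3 of 9 genes were called for the interaction with JQ1, beside 41.5% of tested genes. After IL-10, F10 rose by 4.48 with LPS (interaction 0.95 ± 0.23, adjusted p = 8.49e-04, but 0.116 in limma on log2(TPM + 0.1)). Serpinb2 rose by 8.82 after IL-10 (interaction 3.23 ± 0.87, adjusted p = 0.00506), a fitted value that rests on the 4 reads of the IL-10 group. The Serpinb2 interaction was not called without Unstimulated replicate 3 (adjusted p = 0.172) or IL-10 replicate 1 (0.0777). These were 2 of 9 genes, beside 7.44% of tested genes called for the interaction with IL-10.

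For F10 the interaction with JQ1 was -2.23 ± 1.04 (adjusted p = 0.0727). It was called without Unstimulated replicate 1 (adjusted p = 0.0454) or JQ1 replicate 1 (0.0188) and on the TPM scale. No fold between JQ1 and LPS + JQ1 is given because both groups were at or under 3 reads per library. The F10 interaction rests on the same few reads. On the TPM scale the means of 0.05 in JQ1 and 0.09 in LPS + JQ1 lie under the added 1 or 0.1. The addition holds the log2 change between these 2 groups near 0, so the TPM calls cannot show that JQ1 altered the LPS fold of F10. For F3 the interaction with IL-10 was -1.93 ± 0.68 (adjusted p = 0.0588), called without IL-10 replicate 1 (adjusted p = 0.0132) or LPS + IL-10 replicate 1 (0.00936) and on the TPM scale. Under JQ1, LPS called 3 of the genes higher (F3, Plaur and Serpinb2) and 3 lower (Plau, Thbs1 and Thbd), with 58.6% of tested genes called. F7 and F13a1 were at 3.39 and 39.3 mean normalised counts in JQ1 and at 3.41 and 37.6 in LPS + JQ1. After IL-10, 5 genes were called higher and 3 lower with LPS (67.0% of tested genes called), although F7 was not called with total-count size factors (adjusted p = 0.442). F13a1 was not among them without the block (log2 -0.44 ± 0.34, adjusted p = 0.246) and was lower with it (adjusted p = 7.65e-04).

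**Figure D4:**
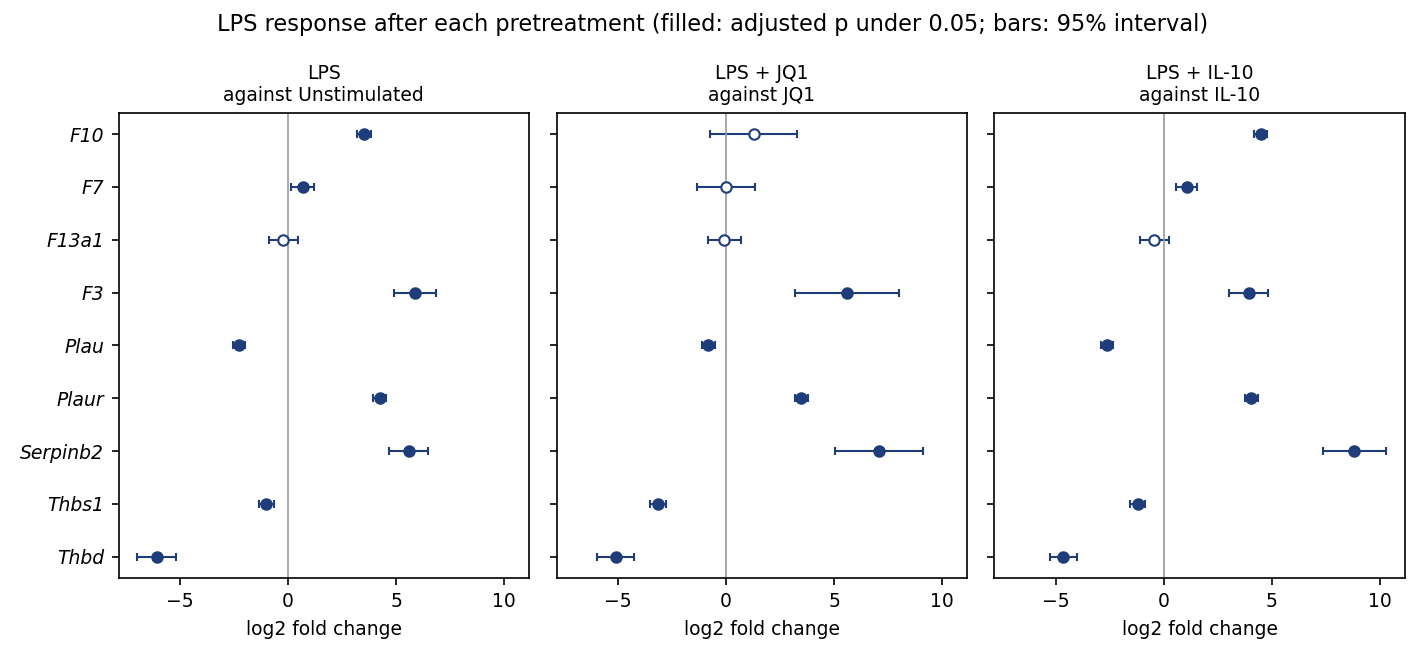
Fitted log2 change with LPS (x axis, 95% interval) for each gene after no pretreatment, JQ1 or IL-10, filled where the adjusted p was under 0.05. F3, Plaur and Serpinb2 lie to the right of 0 and Plau, Thbs1 and Thbd to the left in all 3 panels, whereas F10, and F7 with a direction that depended on the scaling, are called to the right without JQ1 and not called with it.

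Set directly against each other after LPS, JQ1 gave lower levels than IL-10 for all 9 genes, beside 31.6% of tested genes called lower. The difference was smallest for Plau (log2 -0.87 ± 0.16, adjusted p = 1.01e-07) and largest for F10, where LPS + IL-10 exceeded LPS + JQ1 by a ratio of 647 (95% counting interval 297 to 1765). It was -1.30 ± 0.50 for Thbd (adjusted p = 0.0187), a call lost without LPS + JQ1 replicate 2 (adjusted p = 0.0732) or LPS + IL-10 replicate 1 (0.0513) and in edgeR (0.0639). The Thbd call was also lost with total-count size factors (0.0691), with only the groups compared in the fit (0.143) and in limma on log2(TPM + 1) (0.179). The groups did not overlap for any of the 9 genes, but the share of all tested genes without overlap was not computed. The LPS + JQ1 libraries also differed from Unstimulated for all 9, with F3, Plaur and Serpinb2 above and the other 6 below (62.4% of tested genes called). Comparisons that share a group, such as LPS, are not independent of each other.

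Per length, the leading transcript changed from urokinase to its receptor. In Unstimulated the order was Plau at 286 ± 37.8 TPM (SD, n = 3), Thbs1 at 90.4 ± 14.7, Plaur at 48.4 ± 2.40, F13a1 at 30.5 ± 8.71, Thbd at 12.6 ± 1.91, F10 at 5.12 ± 1.34 and F7 at 2.78 ± 0.53 TPM, with F3 and Serpinb2 under 1 TPM. Of these neighbours only F3 and Serpinb2 overlapped. In LPS, Plaur led at 530 ± 15.6 TPM, followed by Plau at 35.3 ± 9.70 and F10 at 34.0 ± 1.81, which overlapped each other, and Thbd came last at 0.12 ± 0.06 TPM. In LPS + IL-10 the order began with Plaur at 293 ± 57.5, F10 at 51.3 ± 8.02 and F13a1 at 30.7 ± 9.02 TPM, the last of which overlapped Thbs1 at 29.8 ± 1.55 TPM. In LPS + JQ1, Plaur at 145 ± 10.99 and Plau at 10.96 ± 1.61 TPM led, and F10 was last at 0.09 ± 0.04 TPM, overlapping Thbd.

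**Figure D5:**
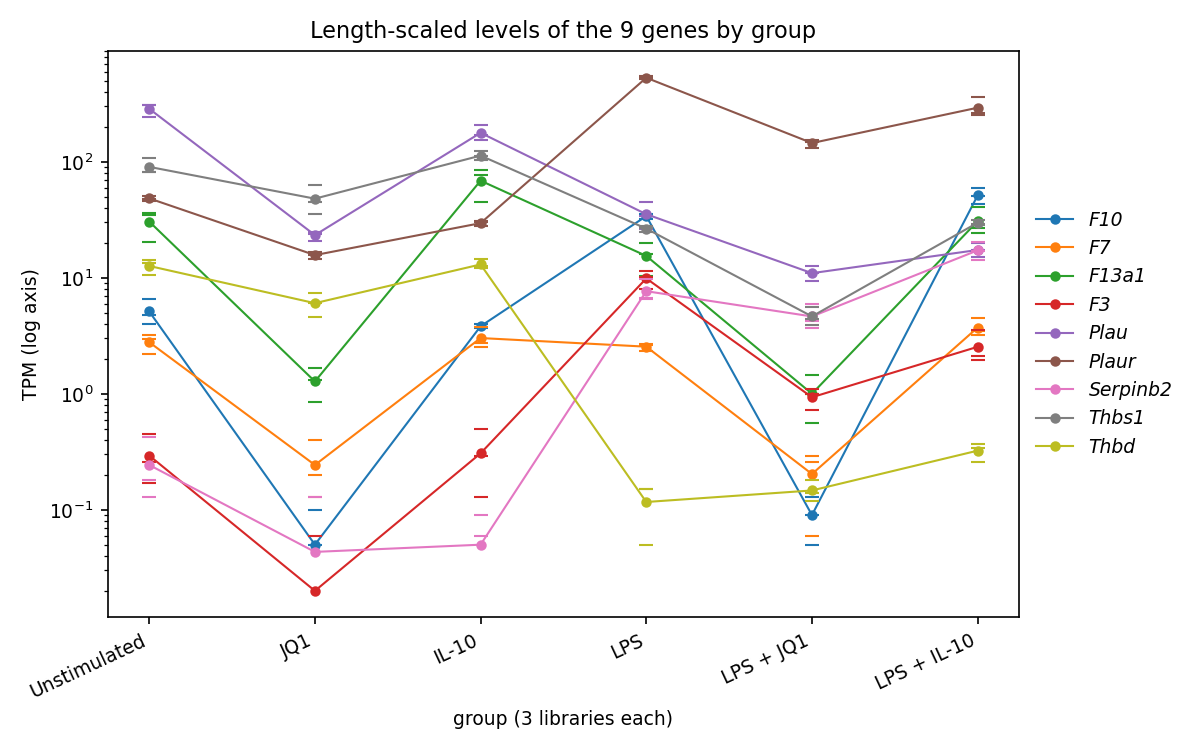
Mean TPM (dots, log axis) of the 9 genes in the 6 groups, with dashes for single libraries above 0 and lines that only join the means of 1 gene. Plaur leads in the 3 LPS groups, at 145 to 530 TPM, and Plau in Unstimulated and IL-10, at 286 and 178 TPM.

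The other genes of the pathway were taken from 6 lists, also chosen with earlier results known. The lists held 45 genes, of which 11 had no read in any library. Of the 30 tested for LPS against Unstimulated, 6 rose and 7 fell, beside 31.6% of all tested genes called higher and 32.9% called lower. Plat, the tissue plasminogen activator, went from 3 reads over the Unstimulated group to 2066 over LPS, a ratio of 935 (95% counting interval 320 to 4538, adjusted p = 2.84e-30). Procr, the endothelial protein C receptor, rose from 105 ± 16.8 (SD, n = 3) to 1560 ± 115 normalised counts (log2 3.90 ± 0.18), and S100a10, a subunit of a plasminogen receptor on the cell surface, rose from 971 ± 57.3 to 2980 ± 114 (log2 1.61 ± 0.07). Entpd1, an ectoenzyme that breaks down ATP and ADP, fell by 1.40 ± 0.13 on the log2 scale, Vkorc1l1 by 0.92 ± 0.13 and the scavenger receptor Lrp1 by 0.63 ± 0.07.

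JQ1 alone lowered 9 and raised 3 of 27 tested list genes, beside 23.7% of all tested genes called lower and 21.9% called higher. Among the list genes with a mean of at least 100 normalised counts, Entpd1 (log2 -2.88 ± 0.13), Vwf (-1.82 ± 0.16) and the protein C cofactor Pros1 (-1.36 ± 0.16) fell most, whereas Ggcx, the carboxylase of vitamin K-dependent factors, and the factor export gene Mcfd2 rose by 0.68 ± 0.15 and 0.29 ± 0.06. The rise of Lrp1 (0.17 ± 0.07) changed sign with total-count size factors and on the TPM scale. After LPS, JQ1 lowered 9 and raised 3 of 29 tested, beside 32.9% of all tested genes called lower and 24.4% called higher. Above the same mean level, Entpd1 fell by 2.84 ± 0.15, Vwf by 1.76 ± 0.17 and Procr by 1.63 ± 0.17, while Vkorc1l1, Ggcx and Mcfd2 rose by 0.94 ± 0.13, 0.70 ± 0.16 and 0.64 ± 0.06. F9, for coagulation factor IX, was under that level and is named here after its values were seen. It held 8.20 ± 4.68 (SD, n = 3) normalised counts in Unstimulated and 2.74 ± 0.86 in JQ1 (adjusted p = 0.0379), and 18.5 ± 7.34 in LPS and 1.15 ± 1.11 in LPS + JQ1 (adjusted p = 7.39e-05).

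IL-10 alone changed 2 of 25 tested list genes, beside 2.81% of all tested genes: Pros1 rose by 0.69 ± 0.15 (adjusted p = 6.92e-04) and Procr fell by 0.84 ± 0.20 (adjusted p = 0.00224). After LPS, IL-10 raised 4 and lowered 3 of 20 tested, beside 8.38% of all tested genes called higher and 8.81% called lower. Pros1 (log2 0.60 ± 0.16) and Eno1 (0.30 ± 0.10) rose, and Plat fell from 828 ± 60.5 to 312 ± 96.4 normalised counts (log2 -1.41 ± 0.18, adjusted p = 6.09e-13), with smaller falls of Vwf (-0.47 ± 0.16) and S100a10 (-0.24 ± 0.07). With IL-10, the activators Plau and Plat were thus both lower after LPS. Both were also called lower with JQ1 after LPS, Plat by a smaller amount (log2 -0.44 ± 0.18, DESeq2 adjusted p = 0.0267). Its mean was 28.0 TPM in LPS and 25.5 TPM in LPS + JQ1. Between the pretreatments after LPS, 9 list genes were lower and 4 higher with JQ1 than with IL-10 among 29 tested, beside 31.6% and 23.8% of all tested genes. Entpd1 (-2.50 ± 0.15), Pros1 (-2.15 ± 0.17) and Vwf (-1.29 ± 0.17) were lower with JQ1, and Plat (0.98 ± 0.18), Ggcx (0.84 ± 0.17) and Mcfd2 (0.80 ± 0.07) were higher.

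F7 and F10 stand next to each other, and the next gene after F10 is Proz, for protein Z, 4231 bases further on. Proz was at 25.8 ± 5.52 (SD, n = 3) normalised counts in Unstimulated, 15.3 ± 1.83 in JQ1, 9.99 ± 5.01 in LPS, 6.13 ± 3.82 in LPS + JQ1 and 24.9 ± 8.78 in LPS + IL-10. It fell with LPS (log2 -1.28 ± 0.43, adjusted p = 0.00502), where F10 rose, and its differences with JQ1 were not called before LPS (-0.71 ± 0.38, adjusted p = 0.116) or after it (-0.77 ± 0.53, adjusted p = 0.214), where both F7 and F10 fell. IL-10 raised Proz after LPS (1.25 ± 0.44, adjusted p = 0.0292).

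The genes with the closest pattern over the 18 libraries were found by the root mean square difference of centred log2(normalised count + 1) among 8378 genes with a mean of at least 100 normalised counts. They were Mefv (0.76) and Clec4a1 (1.09) for F10, Lst1 (0.42) and Sema4d (0.44) for F7, Clec4a2 (0.57) and Ccr1 (0.58) for F13a1, and Tagap (0.63) and Gpr132 (0.66) for F3. For the fibrinolysis genes they were Hist1h2ab (0.48) and Hist1h2bb (0.52) for Plau, Rcn1 (0.34) and Parp12 (0.35) for Plaur, and Ccrl2 (0.68) and Tnfaip3 (0.70) for Serpinb2. Fmnl1 (0.28) and Hgf (0.33) were closest to Thbs1, and S1pr1 (0.59) and Rab3il1 (0.60) to Thbd. Mefv, the closest to F10, had mean normalised counts of 41.9 in Unstimulated, 0.90 in JQ1, 83.3 in IL-10, 407 in LPS, 2.28 in LPS + JQ1 and 911 in LPS + IL-10, so that with IL-10 alone its mean was above Unstimulated where that of F10 was below it. The histone genes belong to families of near-identical members whose reads RSEM divides, so their values are uncertain.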

How the data were processed

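RNA of 18 cultures (6 groups of 3, from 3 mice) was sequenced by the authors as stranded, ribosomal RNA-depleted, paired-end libraries, cleaned with TagDust, aligned to mm9 with STAR and quantified with RSEM 1.2.31. The deposited expected counts are RSEM estimates, in which the authors' default settings divide shared reads among genes and disregard strand, and rounding preceded every test. TPM values were also deposited by the authors, as abundances scaled to gene length. The floor of 3 counts was 0.106 to 0.442 CPM.

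The Wald test of DESeq2 1.42.0 (R 4.3.3) was fitted to all 18 libraries and all genes with group as the only term, after the methods of the study, for 9 pairwise comparisons and 2 interactions, with Benjamini-Hochberg adjustment over all tested genes. The ± values of log2 changes are standard errors. Alternatives used edgeR 4.0.16 and limma 3.58.1 on log2(TPM + 1) and log2(TPM + 0.1) of genes with a mean TPM of at least 1, other size factors, only the groups compared, lane as a covariate, the replicate block, a filter (10 counts in 3 libraries) and each library left out. With 3 libraries against 3, an exact permutation test of a single gene cannot go below 0.10, so none was used.

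Replicate numbers were taken to pair libraries because the study describes cultures of 3 mice. The sample titles give a replicate number but no mouse, so values given by mouse rest on this assumption. Deviations of same-numbered libraries from their group means correlated at 0.12 to 0.58 for LPS or IL-10 against Unstimulated and LPS + IL-10 against LPS, and at -0.17 to 0.19 for other comparisons. Replicate 1 was on lane 7, replicate 3 on lane 8, and replicate 2 on lane 7 without LPS and lane 8 with LPS. No pair of replicates agreed within sampling noise (chi-square per degree of freedom 4.14 to 30.5).

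Size factors from total counts moved the median of all genes by LPS from -0.068 to -0.997 (log2) and that of LPS + JQ1 against LPS from -0.11 to 0.25, so changes are relative to median-of-ratios scaling. Positions are from GENCODE vM1 (mm9), promoters from RefSeq (GRCm38.p6). The genes and lists were chosen with earlier results of these data known. Named genes outside the 9 are the largest called rises and falls (up to 3 each per comparison, mean normalised count of at least 100), the 2 closest patterns per gene and list genes next to a member. Some list and marker genes are not reported here and were left out of the counts and sums.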

Additional observations from a re-analysis of the deposited data

Results flagged for a closer look

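For 5 of the 9 genes the effect of LPS differed between pretreated and untreated cells by the DESeq2 interaction test, out of 18 interaction tests on these genes. These were 3 of 9 with JQ1, beside 41.5% of all tested genes, and 2 of 9 with IL-10, beside 7.44%. With JQ1 the interactions were 1.43 for Plau, -0.75 for Plaur and -2.12 for Thbs1 on the log2 scale. With IL-10 they were 0.95 for F10 and 3.23 for Serpinb2. Under the 9 alternatives that kept all libraries, the adjusted p stayed under 0.05 for Plau and Thbs1. It did not for Plaur (0.411 with total-count size factors) or for F10 (0.116 in limma on log2(TPM + 0.1)), and the Serpinb2 value rests on 4 reads in the IL-10 group.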

How the results depend on the processing

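Of 1593 recomputed log2 changes, 1478 kept their direction and their side of the threshold, 43 were no longer called, 33 became called and 39 changed sign. The cause was not tested for any of them. Of the 39, only 3 concerned a called value, the rise of F7 with LPS, which was -0.25 with total-count size factors, -0.084 on log2(TPM + 1) and -0.11 on log2(TPM + 0.1). The other sign changes were of values that were not called. F7 for LPS + JQ1 against JQ1 was -0.37 with total-count size factors, -0.047 and -0.21 on the 2 TPM scales and -0.073 with lane as a covariate. Thbd for IL-10 against Unstimulated was 0.0018 with TMM size factors, 0.0021 in edgeR, 0.047 and 0.050 on the TPM scales and 0.0056 with only the groups compared. F3 for the same comparison was 0.011 and 0.0032 on the TPM scales. For the interaction with JQ1, F7 was 0.038 and Serpinb2 -0.37 on log2(TPM + 1), and F3 was 0.30 with total-count size factors. With each library left out in turn, values of uncalled results ranged on both sides of 0: F13a1 from -0.41 to 0.0027 for LPS against Unstimulated; F7 from -0.10 to 0.20, F3 from -0.71 to 0.44 and Thbd from -0.13 to 0.11 for IL-10 against Unstimulated; Thbd from -0.32 to 0.41 for LPS + JQ1 against LPS; F7 from -0.34 to 0.55 and F13a1 from -0.43 to 0.23 for LPS + JQ1 against JQ1; and, for the interaction with JQ1, F13a1 from -0.23 to 0.43 and F3 from -0.80 to 0.66.

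On both TPM scales the number of the 9 genes called was 1 for IL-10 against Unstimulated (3 in the main test), where 1.43% of all tested genes were called on log2(TPM + 1) and 1.03% on log2(TPM + 0.1), and 5 for the interaction with JQ1 (3 in the main test), where 60.6% and 58.1% were called. In that interaction F3 (log2 -2.15 and -1.58, adjusted p = 1.47e-06 and 0.0161), F10 and Thbd became called on both TPM scales in limma and Plaur was no longer called. The main test gave -0.25 for F3 (adjusted p = 0.901). Mean F3 was 0.02 TPM in JQ1 and 0.93 in LPS + JQ1, and F10 in both JQ1 groups and Thbd in LPS and LPS + JQ1 were also under 1 TPM. Adding 1 or 0.1 compresses folds at such levels, so these 3 new calls cannot show a changed LPS fold. Thbd was also called, and Plaur not, with total-count size factors in DESeq2 (1.52, adjusted p = 0.0305, and -0.20, adjusted p = 0.411). Leaving out a library gave 1 to 3 genes for the interaction with IL-10 (2 in the main test, where 7.44% of tested genes were called). The lowest was without Unstimulated replicate 3, where 409 of 10128 tested genes were called higher and 282 lower. The highest was without LPS + IL-10 replicate 1, where 444 of 11422 were called higher and 440 lower. The replicate block added the calls of F13a1 for LPS + IL-10 against LPS (log2 0.90) and against IL-10 (-0.42) and changed no other call. Values under about 10 reads per library, as for Thbd after LPS, F3 and Serpinb2 before LPS and F10 with JQ1, are limited by depth.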

Other observations

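F2r, the main thrombin receptor among the protease-activated receptors, lies outside the rule for named genes and was picked with its values known. Its mean normalised count was 5.13 ± 2.04 (SD, n = 3) in Unstimulated, 4.80 ± 5.05 in JQ1, 2.12 ± 0.49 in IL-10, 39.96 ± 5.97 in LPS, 15.3 ± 1.34 in LPS + JQ1 and 93.2 ± 28.1 in LPS + IL-10. LPS raised it by 2.85 ± 0.48 on the log2 scale (DESeq2, adjusted p = 5.61e-09). Without LPS its difference between JQ1 and Unstimulated was not called (-0.18 ± 0.58, adjusted p = 0.839). After LPS, F2r fell with JQ1 (-1.37 ± 0.40, adjusted p = 0.00144) and rose with IL-10 (1.24 ± 0.35, adjusted p = 0.00326). F2rl2 fell with JQ1 after LPS as well, from 11.5 ± 3.13 to 4.18 ± 2.70 normalised counts. F2rl1 was at 0 in Unstimulated, JQ1, LPS and LPS + JQ1. Prothrombin (F2) was read only in LPS + JQ1 replicate 3, at 1.23 normalised counts. Plasminogen (Plg), protein C (Proc) and the fibrinogen chain Fgg had no read in any library.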
